A study of Mus musculus with 12 samples.

Results

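The regions described are the peaks of H3K27ac and of H3K4me1, both histone H3 modifications, in the early streak (ES) mouse embryo. Each peak was taken with its coordinates from the list of its mark. It was called shared where at least 1 bp of it lay in a peak of the other mark, and H3K27ac-only or H3K4me1-only where none did. A peak was near where it came within 1 kb of an outer end of a protein-coding gene, and far otherwise. The 2 lists held 36930 H3K27ac peaks and 47849 H3K4me1 peaks on chromosomes 1 to 19 and X, together 84779 of the 442174 peaks in the 12 lists of the series. Both groups were embryos of strain C57BL/6 labelled E6.0 and E6.5 and staged by morphology, from which the extraembryonic tissue had been dissected away. Cells were dissociated and profiled with CoBATCH, in which an antibody guides the Tn5 transposase to marked chromatin so that the DNA there is cut and tagged inside single cells. There is 1 list for each stage and mark, with no values per cell, so cell types of the embryo cannot be told apart, and fewer cells with a mark and less mark per cell look alike. With 1 library per mark there is no spread between replicates and no test between the marks. Shares are given with 95% Wilson intervals, which cover counting error alone.

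At this stage the epiblast, an epithelium of pluripotent cells, begins to form the primitive streak, through which mesoderm and endoderm leave it. H3K27ac is written by the acetyltransferases p300 and CBP and marks active promoters and enhancers. H3K4me1 is written mainly by the enzymes of Kmt2c and Kmt2d and covers enhancers, whether active or not. An enhancer with H3K4me1 and no H3K27ac is commonly called primed. Around the start of an active gene H3K4me1 usually gives way to the trimethylated form, so maps of the 2 marks often differ most there.

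The 250 bases before 5 gene starts show what kinds of sequence the classes hold. CpG dinucleotides, the sites of DNA methylation, are in capitals, and the bases are written 5′ to 3′ on the strand of the gene (RefSeq, GRCm38.p6, the assembly that mm10 names). T encodes brachyury, the mesoderm factor of the streak. Runx1, needed for blood stem cells, has a distal and a proximal start. Esrrb is an orphan nuclear receptor of naive pluripotency, and Alb encodes albumin of the adult liver and serves as a gene that is silent here.
T, chr17:8434173-8434422, plus strand: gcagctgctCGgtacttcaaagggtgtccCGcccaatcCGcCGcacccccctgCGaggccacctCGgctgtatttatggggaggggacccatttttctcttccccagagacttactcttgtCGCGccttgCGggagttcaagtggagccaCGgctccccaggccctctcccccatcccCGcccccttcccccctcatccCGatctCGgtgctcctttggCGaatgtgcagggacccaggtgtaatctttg
Runx1 proximal start, chr16:92697330-92697579, minus strand: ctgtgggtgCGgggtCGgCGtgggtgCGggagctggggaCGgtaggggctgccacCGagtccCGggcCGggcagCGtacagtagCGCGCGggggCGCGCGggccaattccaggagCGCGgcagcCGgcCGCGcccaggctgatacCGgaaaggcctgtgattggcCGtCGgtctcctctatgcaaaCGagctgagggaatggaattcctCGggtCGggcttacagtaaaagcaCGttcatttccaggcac
Runx1 distal start, chr16:92826075-92826324, minus strand: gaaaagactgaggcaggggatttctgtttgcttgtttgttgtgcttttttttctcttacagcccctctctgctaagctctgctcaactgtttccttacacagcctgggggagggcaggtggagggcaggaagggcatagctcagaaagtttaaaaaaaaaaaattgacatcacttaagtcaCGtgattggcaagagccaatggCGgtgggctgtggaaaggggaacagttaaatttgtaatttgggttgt
Esrrb outer start, chr12:86360867-86361116, plus strand: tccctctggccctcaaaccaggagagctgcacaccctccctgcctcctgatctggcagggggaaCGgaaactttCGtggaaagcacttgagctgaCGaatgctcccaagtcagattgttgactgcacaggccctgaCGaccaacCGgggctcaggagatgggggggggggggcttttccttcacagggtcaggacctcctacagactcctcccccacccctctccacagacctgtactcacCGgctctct
Alb, chr5:90460620-90460869, plus strand: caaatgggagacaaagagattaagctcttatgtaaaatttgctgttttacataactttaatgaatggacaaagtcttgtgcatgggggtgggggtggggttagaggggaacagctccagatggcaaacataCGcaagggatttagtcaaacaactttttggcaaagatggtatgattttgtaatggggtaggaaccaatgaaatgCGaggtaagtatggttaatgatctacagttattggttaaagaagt
The T sequence held 14 CpG and the proximal Runx1 sequence 27, and all 250 bases of each lay in peaks of both marks. The distal Runx1 sequence held 2 CpG and lay in a peak of neither mark. The Esrrb sequence held 6 CpG and lay whole in an H3K4me1 peak without any H3K27ac. The Alb sequence held 2 CpG and carried no peak.

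The first comparison asks how far the marks occupy the same places. Most H3K27ac peaks also carried H3K4me1, while the reverse held less often in the lists as deposited. Of the H3K27ac peaks, 87.9% (87.6 to 88.3) overlapped an H3K4me1 peak, and of the H3K4me1 peaks, 68.0% (67.6 to 68.4) overlapped an H3K27ac peak. The lists covered 41.4 and 49.4 Mb and had 34.4 Mb in common, which is 83.1% of the H3K27ac bases, 69.7% of the H3K4me1 bases and a Jaccard index (shared bases over bases in either list) of 0.610. Merging the lists gave 51779 regions, of which 32005 (61.8%) carried both marks, 4458 (8.61%) H3K27ac only and 15316 (29.6%) H3K4me1 only.

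The difference between these shares changed with the number of peaks kept. The H3K4me1 list ran down to a lower −log10 q (1.11) than the H3K27ac list (1.84). With the 36930 strongest peaks by −log10 q of each mark, 80.2% of peaks of either mark were shared, and unshared peaks made up 19.8% of both lists, where the full lists gave 12.1% and 32.0%. At equal lowest −log10 q the lists held 36930 and 38454 peaks, with 81.7% and 78.4% shared. The weakest peaks rested on a pileup of 3 fragments for H3K27ac and of 2 for H3K4me1. These floor peaks were 3.12% and 9.0% of the lists. A peak of 1 mark alone therefore means that no peak was listed for the other, not that the other mark was absent.

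Near gene ends the marks nearly always came together, and far from them H3K4me1 was often alone in the lists as deposited. Among near peaks, 13598 of 13897 for H3K27ac (97.8%, 97.6 to 98.1) and 13749 of 14841 for H3K4me1 (92.6%, 92.2 to 93.1) were shared. Among far peaks, 18874 of 23033 for H3K27ac (81.9%, 81.4 to 82.4) and 18784 of 33008 for H3K4me1 (56.9%, 56.4 to 57.4) were shared. Sharing was highest for peaks that span a gene end (99.2% and 97.2%) and was 70.1% and 47.5% for peaks over 100 kb from one. In turn, 93.3% (92.5 to 94.0) of the H3K27ac-only and 92.9% (92.5 to 93.3) of the H3K4me1-only peaks were far, against 58.1% and 57.7% of the shared ones. With equal numbers of peaks the marks differed little here. Then 92.4% of 7313 H3K27ac-only and 91.6% of 7324 H3K4me1-only peaks were far. In the upper 50% of each list by −log10 q, 34.4% and 34.3% of the shared peaks were far, so most of them were then near.

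Peaks of 1 mark alone were short and weak, wherever they lay. The median width of shared near peaks was 1209 bp for H3K27ac (quartiles 872 and 1745) and 1185 bp for H3K4me1 (851 and 1786). Shared far peaks had median widths of 630 and 703 bp. The 4159 far H3K27ac-only and 14224 far H3K4me1-only peaks had medians of 410 and 411 bp, and the 299 and 1092 near ones 418 and 440.5 bp. The deposited fold of a peak, the authors' ratio of its signal over the local background, can be read only within a list. In the H3K27ac list its median was 11.4 in shared near, 5.29 in shared far, 3.96 in unshared near and 3.89 in unshared far peaks. In the H3K4me1 list these medians were 8.71, 4.59, 3.25 and 3.08. The quartiles of shared near and unshared peaks did not overlap in either list. Floor peaks were 14.9% of the H3K27ac-only and 23.9% of the H3K4me1-only peaks, against 1.5% and 1.97% of the shared ones.

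**Figure D1:**
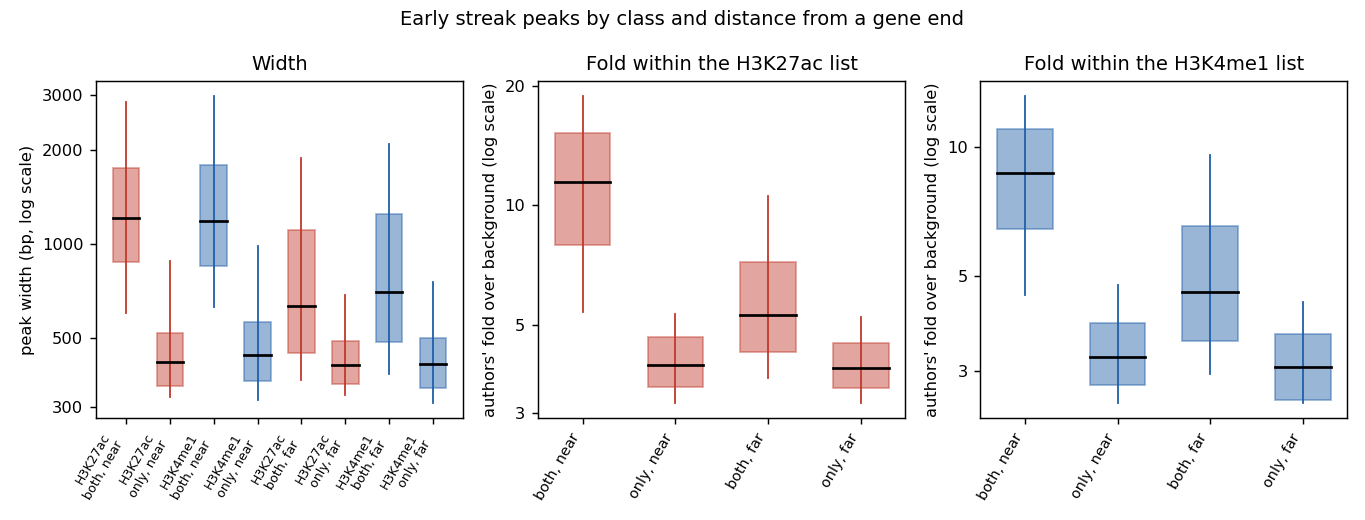
Width (left, bp, log scale) and the authors' fold (middle and right, log scale, each within its own list) of early streak peaks by class, with the median (black line), quartiles (box) and the 10th and 90th percentiles (whiskers). Unshared peaks have medians of 410 to 440.5 bp near and far, and shared near peaks are the widest and have the highest fold.

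The share of peaks with the other mark rose with peak strength and reached nearly all of the strong peaks. In the lowest of 10 deciles of the fold, 54.8% of far and 66.6% of near H3K27ac peaks were shared, and 16.6% of far and 21.3% of near H3K4me1 peaks. In the middle of the range (decile 5), far peaks were shared in 91.3% and 61.5% of cases. In the highest decile all 3165 near and 528 far H3K27ac peaks carried the other mark, as did 3611 of 3612 near and 1173 of 1173 far H3K4me1 peaks. Only 3 of the 10404 H3K27ac peaks at a fold of 10 or more, and 1 of the 6484 such H3K4me1 peaks, did not. At like strength in the lower 8 deciles, near peaks were shared more often than far ones in both lists.

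**Figure D2:**
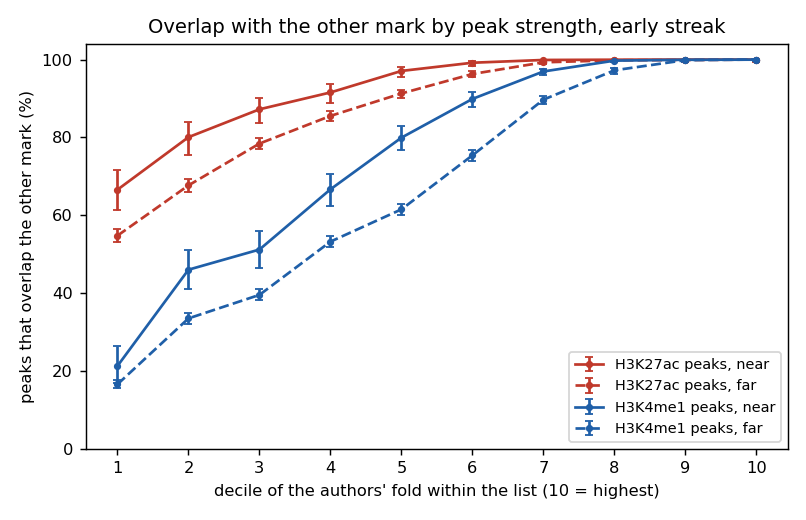
Share of peaks that overlap the other mark (%, with 95% Wilson intervals) by decile of the authors' fold within each list, for near (solid) and far (dashed) peaks of H3K27ac (red) and H3K4me1 (blue). The lines start at 16.6 to 66.6% and meet near 100% in the top 2 deciles.

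Where the marks met, their peaks had nearly the same extent. There were 31096 pairs in which 1 H3K27ac peak overlapped 1 H3K4me1 peak and nothing else. In these the H3K4me1 peak had a median of 1.02 times the width of its partner (quartiles 0.892 and 1.21). It was wider in 59.4% of the 18050 far pairs (58.7 to 60.1) and in 47.3% of the 13046 near pairs (46.4 to 48.1). Across pairs the folds of the 2 marks rose together (Spearman correlation 0.840 over all, 0.713 in near and 0.719 in far pairs). These values describe pairs that share their sequence and embryos. At the 21044 starts of protein-coding genes with an entry in the promoter table, 58.4% of the start bases lay in an H3K27ac peak and 59.4% in an H3K4me1 peak. At 1 kb before the start the shares were 9.71% and 9.87%, and at 3 kb before it 4.10% and 4.53%. Peak lists give presence and not signal, so a dip of signal inside a peak would not be seen.

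The second comparison asks which genes carry which mark. Of 21627 protein-coding genes, 13685 (63.3%) had both marks within 1 kb of an outer end, 189 (0.874%) H3K27ac only, 636 (2.94%) H3K4me1 only and 7117 (32.9%) neither. With equal numbers of peaks the H3K27ac-only genes came to 343 and the H3K4me1-only genes to 421. Gene families, picked with these data known, ranged over the whole scale. All 19 Sox genes, which encode HMG-box transcription factors, 38 of 39 Hox genes, 41 of 44 Fox genes and 54 of 55 Eif genes, which encode translation initiation factors, had both marks. Of 1110 Olfr genes, the olfactory receptors, 14 had both and 1086 neither, and of 355 Vmn genes, the vomeronasal receptors, 4 had both and 348 neither. Among 49 Krt genes, the keratins, 23 had both, 3 H3K27ac only and 8 H3K4me1 only.

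Starts with both marks were rich in CpG. In CpG and GC content, starts with 1 mark lay between those with both and those with neither. They were under the medians of all starts, 13 CpG and 56.7% GC. Over the 300 bases around each start in the RefSeq promoter table, the 12322 starts with both marks had a median GC content of 63.0% and a median of 22 CpG. The 263 H3K27ac-only starts had 53.3% and 9 CpG, the 491 H3K4me1-only starts 55.0% and 7 CpG, and the 7968 starts with neither 46.7% and 3 CpG. The letters GGGCGG, the GC box bound by Sp factors, stood on either strand in 71.1% of starts with both marks, 35.4% with H3K27ac only, 29.5% with H3K4me1 only and 10.3% with neither, against 46.7% of all starts. The letters TATAAA, a form of the TATA box, went the other way, with 5.72%, 12.9%, 15.1% and 23.2%, and 12.7% of all starts. The letters CCAAT were found in 36.2%, 43.7%, 39.1% and 41.8%, and in 38.5% of all. The intervals of the 2 single-mark classes overlapped for each of these motifs.

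The outer ends of a gene can miss a marked start inside it. Of the 5736 genes without a mark at their outer ends and with a start in the table, 515 (8.98%, 8.27 to 9.75) had both marks at some start of the promoter table. Among the H3K4me1-only genes these were 77 of 488 (15.8%, 12.8 to 19.3).

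The widest and strongest shared peaks were ranked by the H3K27ac list. The widest near H3K27ac peak, 38.3 kb, lay over Plec (plectin, a linker of the cytoskeleton; chr15:76171214-76209473), and H3K4me1 covered 89.4% of it. It was followed by a 22.5 kb peak at Pip5k1c, a lipid kinase gene (88.0% covered), and an 18.7 kb peak over Stk11, the kinase LKB1, and its neighbours Atp5d and Cbarp (76.3% covered). The highest near folds were at Hjurp, a histone chaperone of the centromere (45.04), and Smchd1, a factor of X inactivation (34.3). Among far shared peaks the widest were one of 17950 bp inside Gse1 (chr8:120546926-120564875), one of 13.7 kb in Lama5, a laminin chain, and one of 13.5 kb in Fasn, the fatty acid synthase. H3K4me1 covered 92.4%, 90.04% and 79.8% of them. The highest far fold of all, 704, belonged to a peak over Rn18s-rs5, annotated as a pseudogene of 18S ribosomal RNA, and the lncRNA AY036118 (chr17:39842942-39848833). It was also the highest of the H3K4me1 list, at 454. The next, at 169, lay in the lncRNA Gm36876, 60.9 kb from an end of Axin2.

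The H3K27ac-only peaks that stood out were modest in size. The widest near ones lay over Asic3, an acid-sensing ion channel gene next to Cdk5 (1.91 kb, fold 4.23), and in the protocadherin gamma cluster at Pcdhga10 (1.90 kb, fold 3.43). The third, 1.80 kb wide in the protocadherin alpha cluster, had Gm38666 as the nearest gene. The highest near folds were at Ebp, an enzyme of cholesterol synthesis (10.0), and Lmod1, a smooth muscle leiomodin (7.77). Far from gene ends the widest lay in Ssbp3, a cofactor of LIM-homeodomain complexes (2.15 kb, fold 5.43), Ttc13 (2135 bp) and Vwce (2.06 kb). The highest far folds belonged to a peak in a lncRNA 15.6 kb from an end of Gtpbp4 (13.9) and to one in no annotated gene, 281 kb from Ell2, the nearest gene (10.2). The peaks at Asic3, Ebp and Ssbp3 each overlapped H3K4me1 peaks at both MS and LS, the mid-streak and late-streak stages, and that at Gtpbp4 at neither. Among all far H3K27ac-only peaks, 34.8% overlapped H3K4me1 at MS and 45.6% at LS, and among near ones 44.5% and 60.9%.

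The H3K4me1-only peaks included several wide ones at gene ends. The widest near ones lay over Amz1, a metallopeptidase gene (2.78 kb, fold 4.75), Ptgis, the prostacyclin synthase (2.55 kb, fold 3.49), and Fam104a next to Cog1 (2.51 kb, fold 3.58). The highest near folds were at Fam162b (10.96) and Cfap58, a gene of the sperm flagellum (9.89). Far ones included peaks of 3.43 kb near Fam131c, 3.35 kb in Rfx2, a factor of ciliated cells, and 3.20 kb in Prkar1b, a regulatory subunit of protein kinase A, with folds of 2.85, 3.01 and 2.63. The highest far folds were near Tnfrsf10b, a death receptor (9.56), and in Cib4 (8.78). The peaks at Fam162b, Cfap58, Tnfrsf10b and Cib4, those of highest fold, all overlapped H3K27ac peaks at MS and at LS. Of the wide ones, those at Ptgis and Fam104a did so too. Those at Amz1 and Rfx2 did at LS and not at MS, and those at Fam131c and Prkar1b at no stage. Among all far H3K4me1-only peaks, 13.9% overlapped H3K27ac at MS and 31.1% at LS, and among near ones 19.5% and 44.0%.

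Some neighbourhoods held many peaks of 1 class. The territory of a gene was taken as the bases nearer to its ends than to those of other genes, within 100 kb. Grm4, a glutamate receptor gene (chr17:27422387-27513826), led for far H3K4me1-only bases, with 20 such peaks over 14.9 kb and no H3K27ac-only peak, beside 20 shared H3K4me1 peaks over 23.6 kb. It was followed by Arhgef10l, an activator of small GTPases (13 peaks, 12.03 kb), Grik3, another glutamate receptor gene (14 peaks, 11.03 kb), Sh3pxd2a, an adaptor of invadopodia (18 peaks, 9.09 kb), and Ajap1 (14 peaks, 8.93 kb). In all 5 territories H3K4me1 covered more bases than H3K27ac at every one of the 6 stages. At ES this was favoured by the way the territories were picked. The whole H3K4me1 list also covered more than the H3K27ac list at each stage, from 39.1 against 36.2 Mb at EHF to 51.0 against 36.4 Mb at OB. For Grm4 the H3K27ac cover was 22.5 kb at ES and 13.6 to 26.3 kb at the 4 later stages, and the H3K4me1 cover was 44.7 kb at ES and 27.7 to 51.9 kb later.

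Far H3K27ac-only bases were fewer. Ssbp3 had 5 such peaks over 3.92 kb, Foxp4, a forkhead factor, 4 over 3.12 kb, Sart3, a splicing factor, 2 over 3.08 kb, and Hip1, a clathrin adaptor, 4 over 2.84 kb. In Ssbp3 and Foxp4 shared H3K27ac peaks covered 10.8 and 16.0 kb more. Among the territories with the most shared far H3K27ac bases were those of Gins2, a DNA replication factor next to Gse1 (54.0 kb), Casz1, a zinc finger factor of heart development (51.0 kb), Septin9 (41.9 kb) and Hspg2, the perlecan gene (40.1 kb).

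Over all genes with at least 1 kb covered by either mark in the territory, H3K4me1 covered at least 1.5 times as many bases as H3K27ac in 21.1% of 12853, and H3K27ac at least 1.5 times as many in 5.32%. The lists themselves differ in cover (49.4 against 41.4 Mb). In the list of 16 surface ectoderm and amnion genes, 6 of 14 reached that ratio for H3K4me1, in naive pluripotency 3 of 9, in neural ectoderm 6 of 21, in posterior Hox and Cdx genes 7 of 25 and in Nodal signalling 5 of 18. In Wnt signalling 0 of 29 did, in epiblast and pluripotency 0 of 20, and in definitive endoderm and node 1 of 14. These counts are small, and no test was run on them.

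Individual loci show how the marks lie relative to each other. At T both marks had a peak over the start, of 1.71 kb with fold 11.5 for H3K27ac and of 1.94 kb with fold 10.6 for H3K4me1. At Gsc, which encodes the organizer factor goosecoid, the start carried peaks of 3905 and 4038 bp, and 25.6 kb downstream of it an H3K4me1 peak of 2105 bp held an H3K27ac peak of 663 bp. A further 1.19 kb H3K4me1 peak 38.3 kb before the start had no H3K27ac. At Grhl3, a factor of surface ectoderm, H3K4me1 spread over 4.24 kb from 2.37 kb past the start, where the H3K27ac peak had 1075 bp, and over 3.53 kb from 22.4 kb, where it had 524 bp. All 6 loci shown were chosen after their values were seen.

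At Runx1 the proximal start, 129 kb inside the gene from the distal one, lay in peaks of 3.82 kb (H3K27ac, fold 13.6) and 3.95 kb (H3K4me1, fold 10.6). Its outer ends counted as H3K4me1 only because of a 323 bp floor peak at the far end of the gene. At Esrrb the inner start, 60.5 kb downstream, lay in shared peaks with folds of 8.42 and 9.63, while the outer start had a 0.599 kb H3K4me1 peak with fold 2.72 and no H3K27ac peak. Within 1 kb of the outer ends of Esrrb no base lay in an H3K27ac peak at Pre_PS, MS, LS or OB and 371 did at EHF, while 340 to 711 bases lay in H3K4me1 peaks at the 4 later stages. From 40 kb before the Alb start to 140 kb after it the only peaks were a shared pair from 81.0 kb on.

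**Figure D3:**
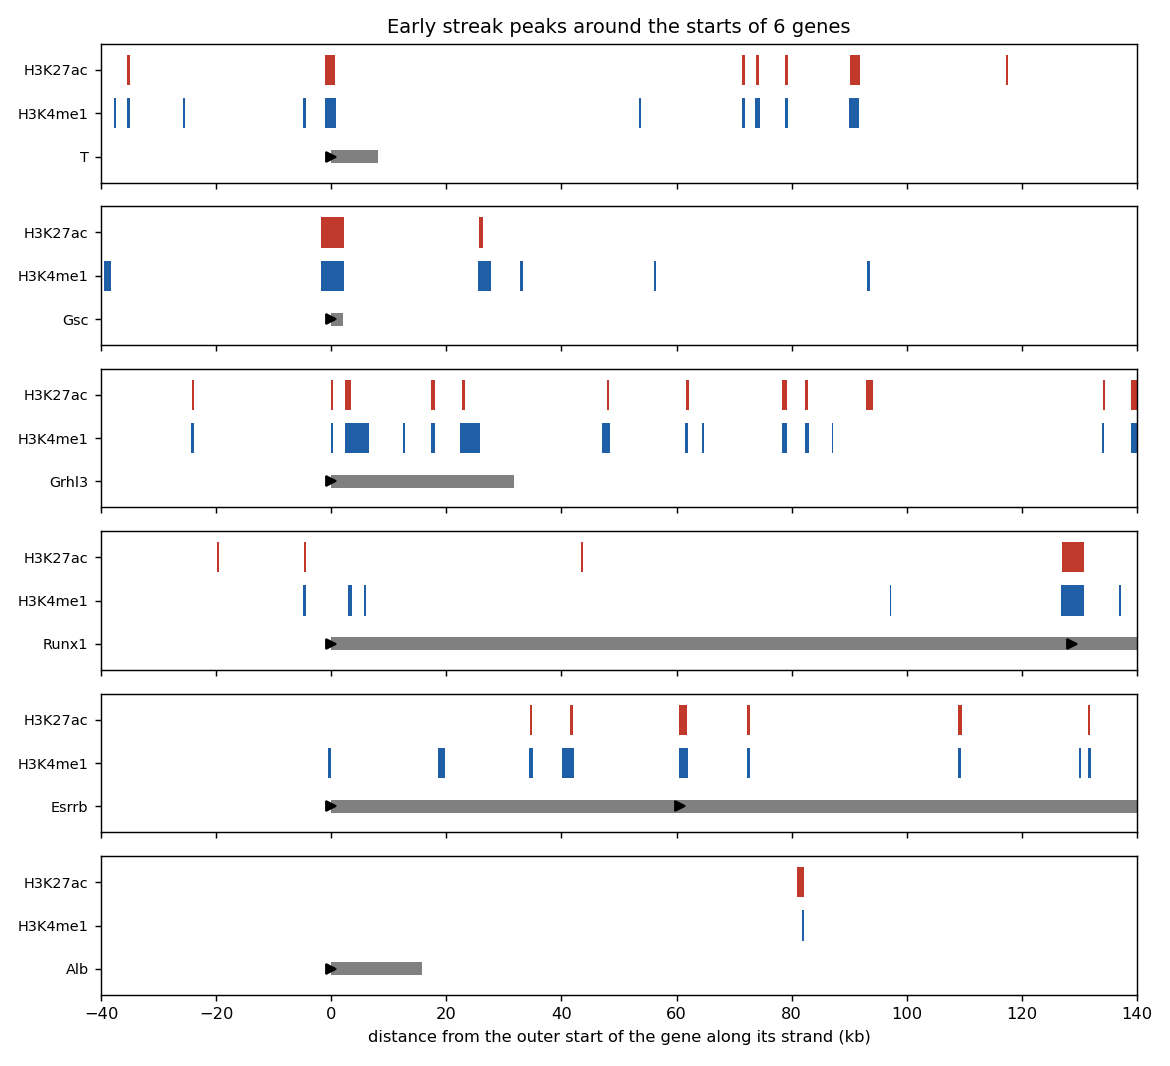
Early streak H3K27ac (red) and H3K4me1 (blue) peaks against the distance from the outer start (kb, along the strand of the gene) for T, Gsc, Grhl3, Runx1, Esrrb and Alb, with gene bodies in grey and the starts of the promoter table as black arrowheads. Both marks cover the starts of T and Gsc and the inner starts of Runx1 and Esrrb, and the H3K4me1 peaks at 2.37 and 22.4 kb in Grhl3 reach past the H3K27ac peaks there.

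Most genes of the streak and of its signals carried both marks at their ends, against 63.3% of all genes. This held for 16 of 17 primitive streak genes, 15 of 15 genes of the epithelial-mesenchymal transition, 19 of 19 in Nodal signalling, 19 of 19 in BMP signalling, 21 of 21 in FGF signalling and 28 of 30 in Wnt signalling. Such shares were not particular to the streak. Both marks also stood at 23 of 24 housekeeping, 21 of 22 neural ectoderm and 27 of 27 posterior Hox and Cdx genes. They were less common in blood and endothelium (12 of 20) and in the adult tissue list (15 of 26). No member of any of the 20 lists had H3K27ac alone, which was also rare over all genes (0.874%). In the streak list the exception was Cer1, a secreted antagonist of Nodal, with neither mark. In the Wnt list Axin2 and Rnf43, both negative regulators of the pathway, had neither at the outer ends, although 13.5 kb of the Axin2 territory carried H3K27ac and 15.2 kb H3K4me1. The largest cover among streak genes was at Lhx1, a LIM-homeodomain factor (10.3 kb of H3K27ac and 14.7 kb of H3K4me1), Wnt3, the ligand needed to start the streak (8.13 and 10.1 kb), and Gsc (6.499 and 11.05 kb).

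H3K4me1 covered at least 1.5 times as many bases as H3K27ac in 2 of 19 BMP and 3 of 21 FGF genes, and H3K27ac in 2 of the 19 BMP genes, against 21.1% and 5.32% of all genes. Single ligands, picked with their values known, differed. In the Nodal territory, the ligand that patterns the epiblast, H3K27ac covered 2.14 kb and H3K4me1 4.32 kb. Bmp7 had 15.5 kb of H3K27ac and 26.4 kb of H3K4me1, and Wnt11 11.2 and 16.2 kb. At Bmp4, the signal from the neighbouring extraembryonic tissue, the widest peak at a gene end was 647 bp for H3K27ac and 5345 bp for H3K4me1. At Bmp2 and Fgf8 the widest peaks were of similar size, with 3156 and 3154 bp at Bmp2 and 3.89 and 3.76 kb at Fgf8. By the widest peak at an end, receptors such as Fzd5 (4.43 and 4.44 kb) and Acvr2b (2.46 and 2.23 kb) and intracellular targets such as Spry2, an FGF feedback inhibitor (6.29 and 6.23 kb), and Id1, a BMP target (5.35 and 6.30 kb), also carried both at similar width. The genes with the most cover in their pathways were Pmepa1 and Ski, both inhibitors of Smad proteins (18.6 and 13.6 kb of H3K27ac), Smad7 (14.8 kb), Smad6 (16.5 kb) and the receptor gene Fgfr3 (15.3 kb). Of the Nodal, BMP, FGF and Wnt lists, 12 of 19, 10 of 19, 15 of 21 and 15 of 30 members had a far H3K4me1-only peak in the territory, and 5, 7, 4 and 5 a far H3K27ac-only peak. Over all genes 31.1% had the former and 12.5% the latter. Of all far H3K4me1 peaks in the territories of these lists, 37.7%, 40%, 43.1% and 34.3% were unshared, near the 41.5% over all genes. In the upper 50% of each list the entries of all 20 lists with a far H3K27ac-only peak fell from 63 to 18.

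The height of the peaks at gene ends differed between the lists. The median over genes of the highest fold at the ends was 12.3 in the H3K27ac list and 9.03 in the H3K4me1 list. By construction 50% of genes with a peak lie under these medians. All 27 posterior Hox and Cdx genes lay under the H3K27ac median, with a median of 6.63 (quartiles 5.60 and 8.06), and 17 of 27 under the H3K4me1 median, with 8.15 (7.14 and 9.72). The Hox genes, which set position along the body axis, sit in 4 clusters and share peaks, so they are not independent. In neural ectoderm 18 of 21 genes lay under the H3K27ac median (8.38) and 9 of 21 under the H3K4me1 median (9.25). In lateral plate and cardiac mesoderm these were 14 of 16 (9.12) and 5 of 16 (10.6), and in surface ectoderm and amnion 12 of 14 (8.97) and 7 of 14 (9.32). In definitive endoderm and node they were 9 of 13 (11.8) and 2 of 13 (9.78). In nascent and paraxial mesoderm they were 12 of 16 (9.96) and 8 of 17 (9.12). The signalling lists differed, with 12 of 19 (11.1) and 13 of 19 (8.14) for Nodal, and 5 of 21 (13.6) and 5 of 21 (10.3) for FGF. Low H3K27ac folds were also found outside the tissues of the embryo proper, with 14 of 15 adult tissue genes (5.87), 8 of 11 visceral endoderm genes (8.79) and 7 of 10 trophoblast genes (9.36) under the H3K27ac median, and 12 of 17 (6.09), 7 of 11 (7.80) and 4 of 10 (11.2) under the H3K4me1 median. Counts nearer to 50% were found for the enzymes that write and erase these marks, with 8 of 20 (15.5) and 13 of 20 (8.71), and for epiblast and pluripotency genes, with 7 of 20 (12.9) and 12 of 20 (8.19). Primitive streak genes were much like these 2 lists for H3K27ac, with 6 of 16 under the median (13.3). For H3K4me1 4 of 16 were under it (10.45). The largest cover among these lists was at Pax2 (24.9 kb of H3K27ac, 31.7 kb of H3K4me1) and Pax7 (23.1 and 26.1 kb) in neural ectoderm, Tfap2a in surface ectoderm (12.4 and 17.2 kb), Foxf1 in lateral plate (10.9 and 15.6 kb), Hoxa3 (8.46 and 9.27 kb), Lfng in paraxial mesoderm (11.9 and 14.6 kb), Dnmt3a in the epiblast list (12.1 and 17.3 kb) and Kmt2d among the enzymes (25.2 and 24.2 kb).

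**Figure D4:**
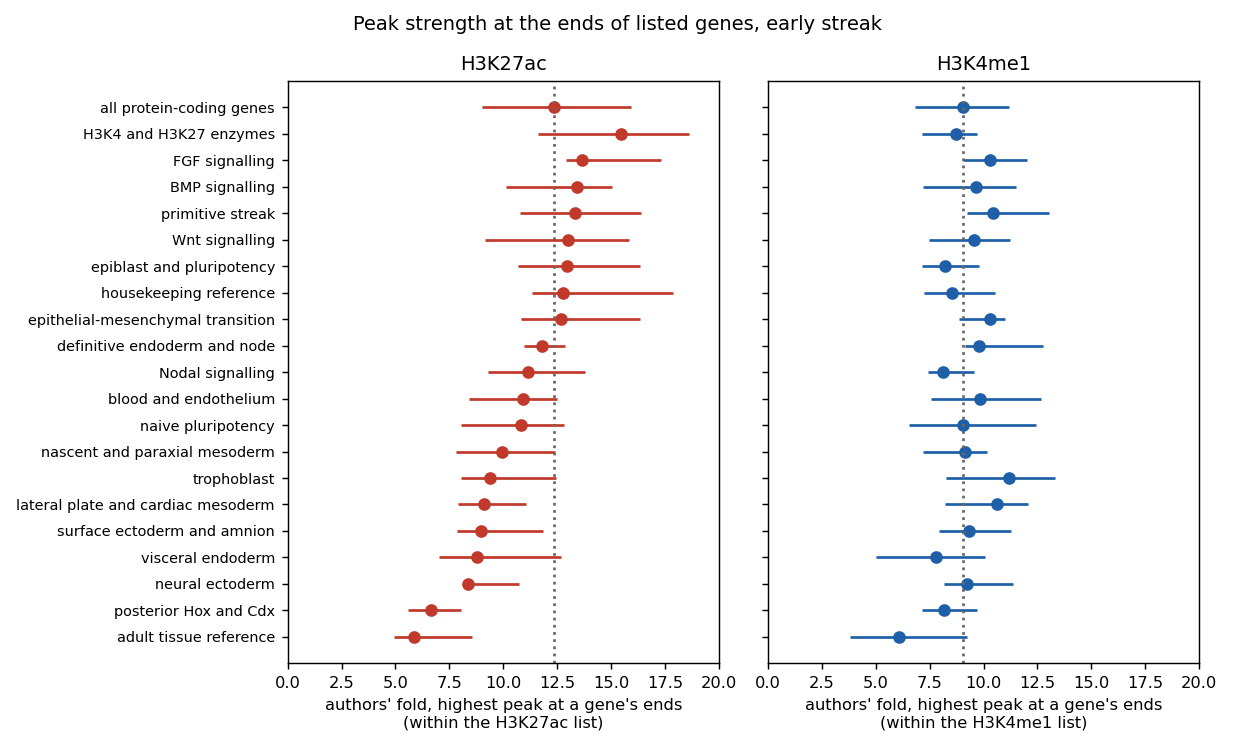
The highest authors' fold of a peak at a gene's ends, as the median over the members with a peak (points) and quartiles (lines), in the H3K27ac list (left) and the H3K4me1 list (right) of the early streak, for 20 gene lists and all genes. The dotted lines mark the medians of all genes, 12.3 and 9.03, and the posterior Hox and Cdx genes stand at 6.63 and 8.15.

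The lists of the other stages, which are separate libraries, gave the following values. At LS the posterior Hox and Cdx genes had a median fold of 8.23 in the H3K27ac list, where all genes had 15.9 and 25 of 27 lay under it. In the H3K4me1 list of LS they had 14.2 against 13.3, with 13 of 27 under it. At EHF, the early headfold stage, 22 of 25 lay under the H3K27ac median (9.10 against 16.0) and 19 of 27 under the H3K4me1 median (10.7 against 12.2). For neural ectoderm at LS, 19 of 21 were under the H3K27ac and 4 of 21 under the H3K4me1 median. The Pre_PS lists rest on pileups of 2 and 1 fragments, and there 7 of 14 and 4 of 18 neural ectoderm genes were under.

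H3K4me1 alone stood at the ends of 8 of the 393 list entries, a small count near the 2.94% of all genes. These included Runx1, Cdh5 and Tie1 in blood and endothelium, Esrrb and Nr5a2 in naive pluripotency, Meox1 in paraxial mesoderm and Prm1 in the adult tissue list. At Cdh5, the cadherin of endothelium, a peak of 2.83 kb lay at one end and a shorter one with fold 5.10 at the other. At Nr5a2, a nuclear receptor gene, one of 1.56 kb had fold 3.11, and at Tie1, an endothelial receptor gene, one of 358 bp lay at the floor, as did that of Runx1. The blood and endothelium list had both marks at 12 of 20 genes and neither at 5, among them Gata1 and the embryonic globin gene Hbb-bh1. Naive pluripotency genes had both at 7 of 12, the epiblast list at 20 of 22, which includes Pou5f1, Sox2, Otx2 and Fgf5, nascent and paraxial mesoderm at 16 of 17, lateral plate and cardiac mesoderm at 16 of 19, definitive endoderm and node at 13 of 15, neural ectoderm at 21 of 22, surface ectoderm and amnion at 14 of 16, and the enzymes at 20 of 20.

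Markers of tissue that was dissected away, or might have been left, carried both marks about as often as genes in general (63.3%). Both marks stood at 11 of 16 visceral endoderm genes, where the defining genes Afp and Ttr had no peak at their ends or in their territories, and at 10 of 16 trophoblast genes, where Tpbpa and Rhox5 had none. The visceral endoderm genes with most cover included Foxa3 (5.32 kb of H3K27ac) and Amn (3.65 kb), and those of trophoblast were Zfpm1 (34.7 kb), Wnt7b (19.4 kb) and Tfap2c (10.3 kb). Foxa3, Zfpm1, Wnt7b and Tfap2c are also used in other tissues. The housekeeping list had both at 23 of 24 genes, with most cover at Eef2 (8.35 kb of H3K27ac), and the adult tissue list at 15 of 26, with neither at 9, among them Alb, Ins2 and Gcg. In the upper 50% of each list the adult tissue genes with both marks fell from 15 to 7, and the posterior Hox and Cdx genes from 27 to 17. The part of other cell types in the classes was not tested.

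The third comparison asks what peaks with 1 mark at ES carried at the other stages. Far peaks of a single mark were found again less often than shared ones, and those of either kind met H3K4me1 more often than H3K27ac. At LS, whose lists cover 42.1 Mb for H3K27ac and 51.3 Mb for H3K4me1, 33.6% (32.2 to 35.1) of far H3K27ac-only peaks overlapped H3K27ac and 45.6% (44.1 to 47.1) H3K4me1. Of far H3K4me1-only peaks 31.1% (30.3 to 31.9) overlapped H3K27ac there and 45.2% (44.3 to 46.0) H3K4me1. Far shared H3K27ac peaks did so in 84.0% and 89.9% of cases. In the upper 50% of each ES list by −log10 q, 91.1% of peaks then classed as far H3K27ac-only met H3K4me1 at LS. Of those then classed as far H3K4me1-only, 84.1% met H3K27ac. Both lists were cut before classing, so a peak could become single because its weaker partner had been dropped. These values therefore cannot show how often strong peaks of a single mark in the full lists met the other mark. The low shares are those of the full lists. At MS the H3K27ac-only peaks met H3K27ac in 18.0% and H3K4me1 in 34.8%, and the H3K4me1-only peaks in 13.9% and 35.2%.

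The gap to shared peaks was also present among weak peaks. Among H3K27ac peaks of deciles 1 to 3 of the fold, 67.4% of 6705 shared ones and 28.9% of 3324 unshared ones met H3K27ac at LS. The median folds of these groups were 3.99 and 3.72. Among H3K4me1 peaks of deciles 1 to 3, 71.9% of 3949 shared and 34.9% of 9328 unshared ones met H3K4me1 at LS, with median folds of 2.98 and 2.80.

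Over the 5 other stages together, 72.0% (70.7 to 73.4) of far H3K27ac-only peaks overlapped H3K4me1 at least once and 53.3% (51.8 to 54.8) H3K27ac. Only 6.32% met H3K27ac and never H3K4me1, and 21.6% met neither. Of far H3K4me1-only peaks 69.8% (69.1 to 70.6) met H3K4me1 and 46.7% (45.9 to 47.5) H3K27ac, 27.2% met H3K4me1 and never H3K27ac, and 26.0% met neither. The near classes came back more often. At LS 52.8% (47.2 to 58.4) of the 299 near H3K27ac-only peaks overlapped H3K27ac and 60.9% (55.2 to 66.2) H3K4me1, and 44.0% and 58.2% of the 1092 near H3K4me1-only peaks did. Measured by bases, the ES H3K27ac list shared about as much with the H3K4me1 list of its own stage (Jaccard index 0.610) as with those of the 4 later stages (0.618 to 0.646), and little less than with their H3K27ac lists (0.639 to 0.672).

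**Figure D5:**
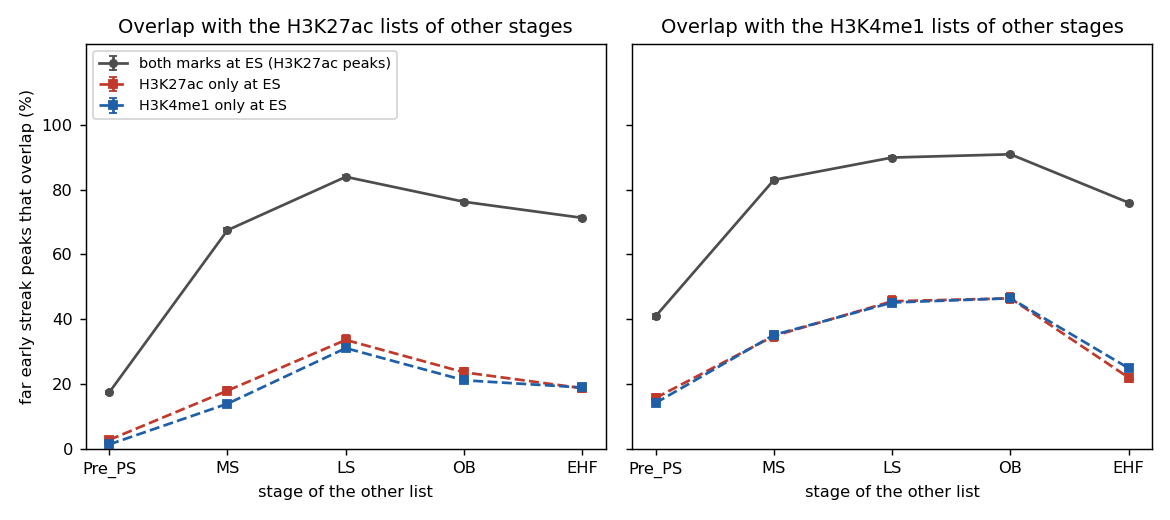
Share of far early streak peaks (%, with 95% Wilson intervals) that overlap the H3K27ac list (left) or the H3K4me1 list (right) of each other stage, for H3K27ac peaks with both marks (grey), H3K27ac-only (red) and H3K4me1-only (blue) peaks. Shared peaks lie at 84.0% and 89.9% at LS, and the 2 single-mark classes at 31.1 to 33.6% and 45.2 to 45.6%.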

How the data were processed

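For each mark, 1 list of broad peaks on mm10 was deposited for the early streak embryos. The submitters' processing notes name Bowtie2, Picard, MACS2 and deepTools; their settings, the number of cells and the depth are unknown here. The deposited fold is the authors' ratio of a peak over its local background. Values of −log10 p and −log10 q come with each peak as deposited by the authors, and −log10 q ranked peaks in the alternatives. The deposited score was not used. Pileup and background of the weakest peaks were solved from the lowest fold and its −log10 p.

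Overlap took 1 bp, and coordinates are 1-based. The RefSeq table (GRCm38.p6) gave 21627 protein-coding genes, each with both outer ends, and its promoter table gave starts for 17273 of them. Python 3.11.15, numpy 2.4.6, pandas 2.3.3 and scipy 1.17.1 were used, and the interval steps were tested on simulated data. The members, the 20 gene lists (374 genes) and the rule for named genes were chosen with earlier results of these data known. That rule took the 3 widest peaks and the 2 of highest fold in each class, the 5 territories with most far bases, and in each list the genes with 1 mark and the 3 with most cover. Other genes were named after their values were seen. Alternatives changed the overlap, the peaks kept and the near distance. Some genes that this rule names are not reported here.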

Additional observations from a re-analysis of the deposited data

Results flagged for a closer look

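Both early streak lists also held peaks outside chromosomes 1 to 19 and X, which no comparison used. There were 48 for H3K27ac and 60 for H3K4me1. Most lay on the Y chromosome (26 and 38), 2 H3K27ac peaks lay on the mitochondrial genome, and the others on unplaced sequences. The highest fold among them was 41.6 for H3K27ac and 21.7 for H3K4me1, both on the unplaced sequence JH584304.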

How the results depend on the processing

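No paired analysis was possible because each stage and mark has 1 library. No ratio of median widths or folds changed direction under the alternatives that gave it. Shares, counts and the Jaccard index were checked only for a move, not for a direction. The setting at equal lowest −log10 q was chosen after seeing the data. The shares of H3K27ac and of H3K4me1 peaks that carry the other mark were 83.7% and 62.3% where the other mark had to cover 50% of the peak, 94.4% and 73.1% in the upper 50% of each list, 72.3% for the second without floor peaks, 80.2% and 80.2% with equal numbers of peaks, 81.7% and 78.4% at equal lowest −log10 q. The Jaccard index was 0.648 in the upper 50% of each list, 0.626 without floor peaks, 0.638 with equal numbers of peaks, 0.636 at equal lowest −log10 q. The far share of H3K27ac-only and of H3K4me1-only peaks was 90.1% and 90.8% where the other mark had to cover 50% of the peak, 77.3% and 82.5% in the upper 50% of each list, 92.2% for the second without floor peaks, 92.4% and 91.6% with equal numbers of peaks, 91.8% for the second at equal lowest −log10 q, 87.6% and 87.4% with near set at 2.5 kb, 97.3% and 96.96% with gene starts alone. That of shared H3K27ac and shared H3K4me1 peaks was 56.97% and 55.8% where the other mark had to cover 50% of the peak, 34.4% and 34.3% in the upper 50% of each list, 57.03% and 56.6% without floor peaks, 54.97% and 54.5% with equal numbers of peaks, 55.6% and 55.1% at equal lowest −log10 q, 51.9% and 51.6% with near set at 2.5 kb, 67.6% and 67.5% with gene starts alone. The median width of far shared over far unshared peaks, 1.54 for H3K27ac and 1.71 for H3K4me1 as deposited, became 1.395 and 1.54 where the other mark had to cover 50% of the peak, 1.66 and 1.66 in the upper 50% of each list, 1.65 for the second without floor peaks, 1.65 for the second with equal numbers of peaks, 1.65 for the second at equal lowest −log10 q, 1.49 and 1.66 with near set at 2.5 kb. The same ratio of median folds, 1.36 and 1.49, became 1.51 for the second where the other mark had to cover 50% of the peak, 1.28 and 1.52 in the upper 50% of each list, 1.34 and 1.42 without floor peaks, 1.41 and 1.34 with equal numbers of peaks, 1.405 and 1.36 at equal lowest −log10 q, 1.34 and 1.46 with near set at 2.5 kb. The shares of far H3K27ac-only peaks with H3K4me1 at LS and of far H3K4me1-only peaks with H3K27ac at LS were 53.8% and 37.4% where the other mark had to cover 50% of the peak, 91.1% and 84.1% in the upper 50% of each list, 51.3% and 37.97% without floor peaks, 54.6% and 45.04% with equal numbers of peaks, 53.01% and 42.7% at equal lowest −log10 q. Genes with H3K27ac alone at their ends numbered 343 with equal numbers of peaks, 312 at equal lowest −log10 q, and those with H3K4me1 alone 421 with equal numbers of peaks. List entries with a far H3K27ac-only peak fell from 63 to 18 in the upper 50% of each list. The settings keep fewer or other peaks by construction. Where peaks are dropped, a peak can become single because its partner was removed. No other cause was tested. Depth limits the weakest peaks, which rest on 3 and 2 fragments.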
